A study of Mus musculus with 21 samples.

Results

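Myostatin, the transcription factors that build and maintain skeletal muscle, and the ubiquitin ligases that break it down were followed in mammary tumours of sedentary and physically active mice. The genes were Mstn, Myf5, Myf6, Myod1, Myog, Pax7, Trim63, Fbxo32, Isl1 and Mlip, 10 genes chosen by symbol, of the 19241 genes in the tumour tables. The tables listed 8 of them, and Myf5 and Pax7 were not listed. A gene is listed there when 1 tumour or more reached 10 reads for it. The fast myosin heavy chain gene Myh4 of the same libraries served as the measure of skeletal muscle RNA. The 10 genes were picked with their week 12 values, the difference between the weeks and their ratio to Myh4 known. Those values are thus given as a description only.

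The mice were of MMTV-PyMT genotype, in which the promoter of the mouse mammary tumour virus drives the polyoma middle T oncogene in the mammary epithelium and tumours arise there. All 4 tumour groups carried this transgene and differed in activity, sedentary or physically active, and in time, week 12 or week 18, with 3 tumours in each group. RNA was extracted from whole tumours by the TRIzol method and sequenced from stranded mRNA libraries, so cells of any tissue taken with the tumour contributed to it. The labels number the libraries of a group as biological replicates and do not say how the activity was given. Tumour libraries held 20838963 to 28973775 reads. Levels are normalized counts, which are reads divided by 1 size factor per library, and all 12 tumours were on 1 scale.

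Myostatin is a secreted member of the TGF-beta superfamily, made mainly by skeletal muscle fibres, which holds back muscle growth through activin type II receptors. Myf5, Myod1, Myog and Myf6 are the basic helix-loop-helix factors of myogenesis, which bind short E-box sequences, and Pax7 marks the satellite cells that serve as muscle stem cells. Trim63 (MuRF1) and Fbxo32 (atrogin-1) are the ubiquitin ligases induced in wasting muscle, downstream of FOXO factors. Isl1 is a LIM homeodomain factor of motor neurons, pancreatic islets and cardiac progenitors, and Mlip encodes a protein of heart and skeletal muscle that interacts with lamin A/C. Epithelial genes were present in every tumour, and the summed level of 9 of them (among them Krt8, Krt18 and Cdh1) was 65018 to 160852 normalized counts.

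Muscle RNA was present in every tumour and differed most between the sedentary week 12 tumours and the rest. Myh4 was at 41654, 15290 and 29456 normalized counts in sedentary tumours of week 12, and at 334, 98.9 and 79.2 in the active ones. At week 18 it was at 123, 2087 and 1704 in sedentary and at 240, 2202 and 1323 in active tumours. A list of 20 contractile genes of skeletal muscle moved with Myh4 and summed to 85459 to 187146, 549 to 2255, 778 to 18543 and 1930 to 24408 in these 4 groups. Of the 20 genes, 16 were lower in active tumours of week 12 by limma at an adjusted p-value under 0.05, among them Myoz1 (log2 fold change -7.54, adjusted p = 0.0101) and Myh2 (-5.34, adjusted p = 0.0108). Without sedentary replicate 1 or 3 the limma adjusted p-values of both were between 0.0754 and 0.105. In bulk tissue, fewer muscle fibres and less of an RNA per fibre cannot be told apart, and the part of muscle content in the values below was not tested beyond the ratios to Myh4.

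The sequence before the start of 3 of the genes is shown because these genes had high and low levels in the same tumours, and because E-boxes are what the myogenic factors bind. Mstn lies at chr1:53061640-53068079 on the plus strand, Trim63 at chr4:134315120-134329629 on the plus strand and Isl1 at chr13:116298281-116309689 on the minus strand (GRCm38, GENCODE M21). The 250 bases upstream of the RefSeq start (GRCm38.p6) are chr1:53061390-53061639, chr4:134314870-134315119 and chr13:116309689-116309938. They run 5′ to 3′ on the gene's strand, and capitals mark each match to the E-box letters CANNTG.
Mstn: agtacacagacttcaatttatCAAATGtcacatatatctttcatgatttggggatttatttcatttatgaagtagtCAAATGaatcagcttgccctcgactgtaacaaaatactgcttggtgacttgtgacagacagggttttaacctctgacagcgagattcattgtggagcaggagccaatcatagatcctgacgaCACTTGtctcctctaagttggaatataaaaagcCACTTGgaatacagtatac
Trim63: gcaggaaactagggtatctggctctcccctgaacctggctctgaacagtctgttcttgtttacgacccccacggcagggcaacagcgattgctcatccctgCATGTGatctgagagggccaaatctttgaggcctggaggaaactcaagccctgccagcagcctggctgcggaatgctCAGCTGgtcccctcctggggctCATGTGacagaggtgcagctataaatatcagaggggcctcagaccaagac
Isl1: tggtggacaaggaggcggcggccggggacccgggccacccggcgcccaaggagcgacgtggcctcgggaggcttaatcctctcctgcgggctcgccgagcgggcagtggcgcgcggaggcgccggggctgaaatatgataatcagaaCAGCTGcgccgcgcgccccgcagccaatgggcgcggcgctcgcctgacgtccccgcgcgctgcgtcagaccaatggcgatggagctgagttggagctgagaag

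The Mstn stretch held 4 matches, starting 229, 174, 52 and 19 bases before the start, and a TATAAA at 29 bases. The Trim63 stretch held 3 matches, at 149, 72 and 50 bases, of which the one at 72 reads CAGCTG, the form of E-box preferred by MyoD-type factors. It also held TATAAA at 31 bases and 1 match to GTAAACA, a FOXO-like sequence, at 194 bases, read on the opposite strand. Isl1 had 1 match, a CAGCTG at 103 bases, and no TATAAA. These letters are common: of 32851 upstream stretches of the same length, 66.2% held CANNTG, 13.0% CAGCTG, 12.4% TATAAA and 3.17% GTAAACA on either strand. A match describes the letters only. RefSeq promoter entries were matched for 7 of the 10 genes.

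Mstn, the ligand, was high in the sedentary week 12 tumours and near 0 in the active tumours of that week. Its levels there were 424, 325 and 376 normalized counts (353, 308 and 402 reads). In active tumours of week 12 they were 1.82, 1.03 and 2.23, from 1 or 2 reads each. The groups were far apart, and the 3 sedentary libraries were more alike in Mstn (a coefficient of variation of 13.2%) than in Myh4 (45.8%). The group means were 375 ± 49.5 and 1.69 ± 0.610 (SD, n = 3), and summed reads gave 221 times as much Mstn in sedentary tumours (95% exact counting interval 94.4 to 682). On the log2(value + 1) scale the difference was -7.14 with a standard error of 0.23, beside the -7.58 of Myh4 (standard error 0.67).

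At week 18 Mstn was low in both groups. It was at 0, 14.2 and 6.94 normalized counts in sedentary and at 7.28, 7.87 and 0.891 in active tumours, and the ranges overlapped. The activity difference of 0.07 (standard error 1.19) had a limma adjusted p-value of 0.994. Its sign turned when sedentary replicate 1 was left out (-1.08), and also without active replicate 1 or 2.

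**Figure D1:**
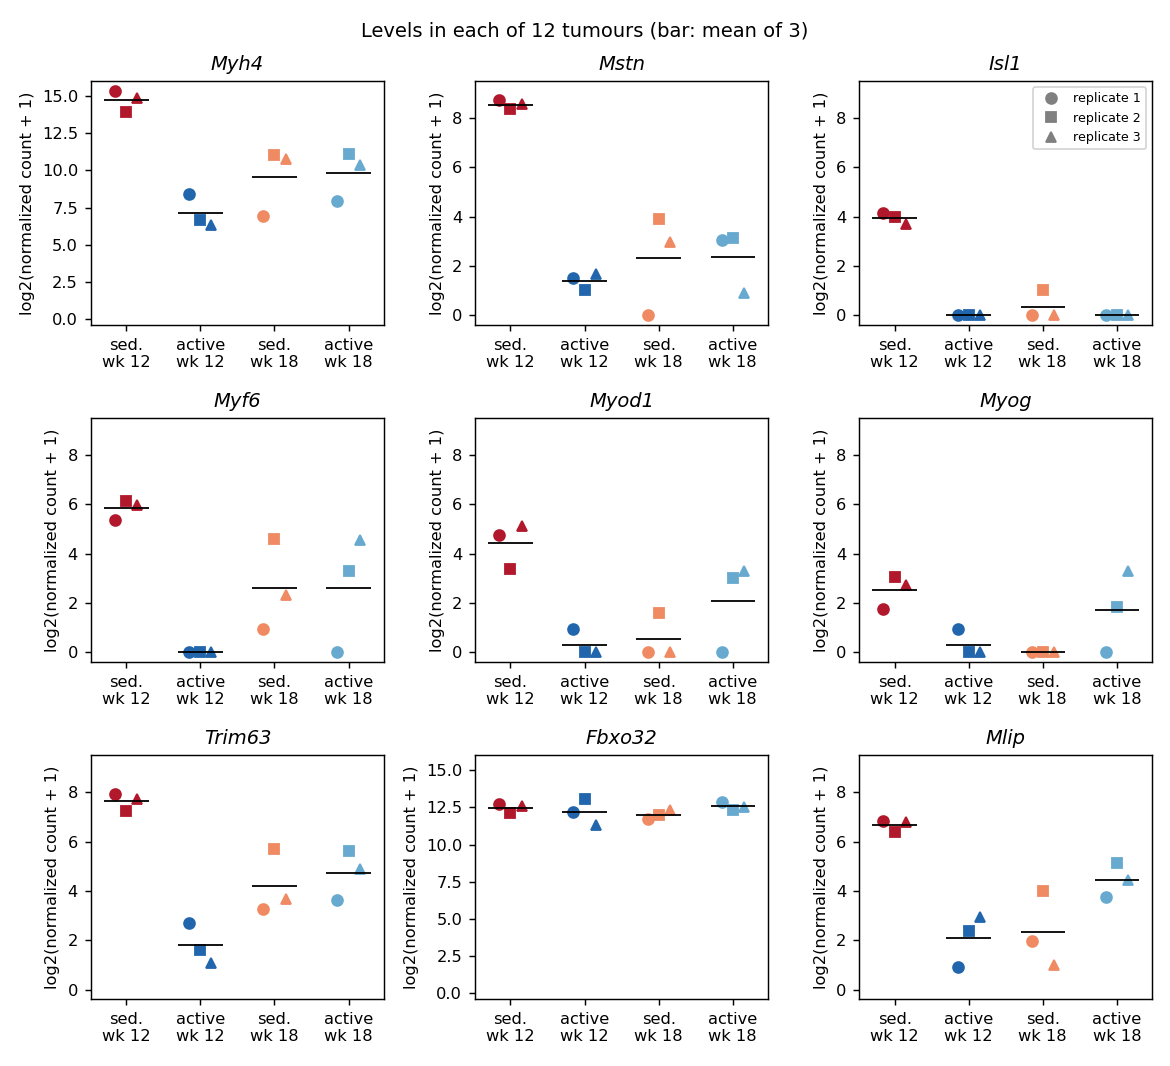
Levels of Myh4 and the 8 listed genes as log2(normalized count + 1) in each of 12 tumours (points, shape by replicate number; bars, mean of 3), by activity and week. The 3 sedentary week 12 tumours stand above the other 9 in every panel but Myog and Fbxo32, and Fbxo32 lies at a like height in all 4 groups.

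Among the myogenic factors, the one of mature fibres was the most abundant. Myf6 (MRF4), which is expressed in differentiated muscle, was at 40.8, 69.6 and 62.7 normalized counts in sedentary tumours of week 12 and had no read in any active tumour of that week. Against a floor of 3 reads over the active group, it was at least 57.9-fold higher in the sedentary tumours (lower limit of the 95% exact counting interval 46.6). At week 18 Myf6 was at 0.957, 23.3 and 3.97 in sedentary and 0, 8.74 and 22.3 in active tumours. The 2 groups overlapped, and in each of them 1 tumour held most of the reads (23 of 28 and 25 of 35). The activity difference at week 18 was -0.02 with a standard error of 1.47 (limma adjusted p = 0.999).

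Myod1, the factor that commits cells to the muscle lineage, was at 26.4, 9.48 and 33.7 normalized counts in sedentary tumours of week 12. A single read was counted in the active tumours of that week, which puts the ratio of summed reads at 69.7 with an interval from 12.1 to 2793. At week 18 it was at 0, 2.02 and 0 in sedentary and at 0, 6.99 and 8.91 in active tumours. The active tumours of replicates 2 and 3 thus held most of the week 18 reads, 18 against 2 in the sedentary group. The difference of 1.57 (standard error 1.01) did not pass the test over all genes (limma adjusted p = 0.824). It moved between 0.97 (without active replicate 3) and 2.62 (without active replicate 1).

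Myog, myogenin, which drives the differentiation of myoblasts, was the scarcest of the listed myogenic factors. It was at 2.40, 7.38 and 5.61 normalized counts in sedentary tumours of week 12, from 2, 7 and 6 reads, and 1 read was counted in all active tumours of that week. At week 18 no sedentary tumour had a Myog read, and the active tumours had 0, 3 and 10 reads (0, 2.62 and 8.91 normalized counts). The summed reads were 13 against 0, and without active replicate 3 they were 3 against 0, so no fold is given. Active replicate 1 had no Myog read, like the sedentary tumours, and the difference of 1.72 (standard error 0.83) had a limma adjusted p-value of 0.824. It moved between 0.93 (without active replicate 3) and 2.58 (without active replicate 1). Of the 2 factors of muscle stem cells and early myoblasts, Myf5 lies 6718 bases from Myf6 on the same strand of chromosome 10, and neither it nor Pax7 was listed.

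The atrophy ligases did not move together. Trim63 was at 244, 150 and 209 normalized counts in sedentary tumours of week 12 and at 5.47, 2.06 and 1.12 in active ones. The groups were separate, and the ratio of summed reads was 65.6 (34.3 to 144). At week 18 Trim63 was at 8.62, 50.6 and 11.9 in sedentary and 11.4, 48.1 and 28.5 in active tumours, with overlapping ranges and a difference of 0.50 (standard error 0.81, limma adjusted p = 0.895). Without sedentary replicate 1 the difference was 0.02, and without sedentary replicate 2 it was 1.24. With the replicate number as a block the standard error was 0.32 (limma adjusted p = 0.726).

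Fbxo32 was an abundant transcript of every tumour. It was at 6824, 4476 and 6144 normalized counts in sedentary and at 4707, 8582 and 2521 in active tumours of week 12. The ranges overlapped, and the difference of -0.29 (standard error 0.48) became 0.15 without active replicate 3. At week 18 it was at 3438, 4090 and 5095 in sedentary and at 7423, 5232 and 5940 in active tumours. All 3 active tumours were above all 3 sedentary ones, an order shown by 6.03% of the 18939 genes tested (the reverse order by 7.57% of genes and 0 of the 7 listed genes tested), and the difference of 0.56 (standard error 0.23) had a limma adjusted p-value of 0.824. Per kilobase of exon, Fbxo32 (834 in sedentary tumours of week 12) was above Mstn (139), Trim63 (70.6), Myf6 (45.7), Myod1 (12.5), Mlip (11.5), Isl1 (3.68) and Myog (3.43), where Myh4 was at 4787. Fbxo32 was also the only one of the 10 genes listed for sorted hematopoietic stem cells of sedentary mice, a table normalized apart from the tumours, with 41.7, 46.6 and 79.2 normalized counts.

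Isl1 was a low transcript with a narrow range. It was at 16.8, 14.8 and 12.2 normalized counts in sedentary tumours of week 12, from 14, 14 and 13 reads. It had no read in the active tumours of week 12 or of week 18, and 1 read in 1 of the 3 sedentary tumours of week 18. The sedentary week 12 level was at least 14.2-fold above the active one, against the floor of 3 reads over the group (lower limit of the 95% exact counting interval 11.0). Isl1 stayed below the minimum mean of 1 at week 18 and was not tested there. Of 17 genes of neurons and neuroendocrine cells, other known sources of Isl1, 12 (Th, Dbh, Chat and Mnx1 among them) were not listed. Limma called 0 of the other 5 at week 12. The summed level of those 5 was 49.2 to 59.9 in sedentary and 37.1 to 366 in active tumours of week 12.

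Mlip was at 114, 83.3 and 110 normalized counts in sedentary tumours of week 12 and at 0.911, 4.12 and 6.69 in active ones. The groups did not overlap, and the ratio of summed reads was 27.6 (15.2 to 55.9), below the 157 of Myh4 (144 to 171). At week 18 Mlip was at 2.87, 15.2 and 0.991 in sedentary and at 12.5, 34.1 and 20.5 in active tumours. Only the lowest active tumour lay below the highest sedentary one. The difference of 2.12 (standard error 0.84) had a limma p-value of 0.0489 before and 0.824 after adjustment. With the replicate number as a block the standard error was 0.54, and the limma p-value was 0.0216 before and 0.601 after adjustment. Unpaired, the difference moved between 1.45 (without sedentary replicate 3) and 2.96 (without sedentary replicate 2). Its unadjusted p-value was above 0.05 in each unpaired fit without 1 tumour except that without sedentary replicate 2.

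Over the 8 listed genes, 7 had all 3 active tumours of week 12 below all 3 sedentary ones, an order found for 4.78% of the 19162 genes tested, and 0 had the reverse order, found for 4.36%. Limma called 5 of the 8 lower in active tumours at week 12 (Mstn, Myf6, Trim63, Isl1 and Mlip), where 0.511% of all genes were called lower. Trim63 lost this call without any 1 of the sedentary tumours or active replicate 2 (limma adjusted p of up to 0.142), and Mlip without any 1 tumour but active replicate 1 (up to 0.283). Since the genes were chosen on this contrast, nothing is read from these counts. The authors' deposited table had an adjusted p-value under 0.05 for 6 of the 8, these 5 and Myod1, against 1% of its genes called lower. Across all 12 tumours, 6 of the 8 had the sedentary week 12 libraries above the other 9, as did 1.28% of genes.

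At week 18 limma called 0 of the 7 genes tested, where 0% of the 18939 genes were called in either direction. At an unadjusted p-value under 0.05 there were 1131 genes, and Mlip was the only one of the 7. By edgeR and DESeq2 it was Fbxo32 in place of Mlip. EdgeR called 0 genes and DESeq2 52, none of them among the 7, and 41 genes passed in the authors' deposited table, where 0.177% of genes were called lower and 0 of the 8 were called. The difference between the weeks, as the week 18 effect minus the week 12 effect, was positive for each of the 8 genes, from 0.86 for Fbxo32 to 7.21 for Mstn, and limma called Isl1 alone (3.61, standard error 0.36), where 0.0052% of genes were called positive. With the replicate block limma called Trim63 too (6.33, adjusted p = 0.0168), and edgeR and DESeq2 did not call Isl1 (adjusted p = 1.00 and 0.569). These differences were among the values that chose the genes.

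**Figure D2:**
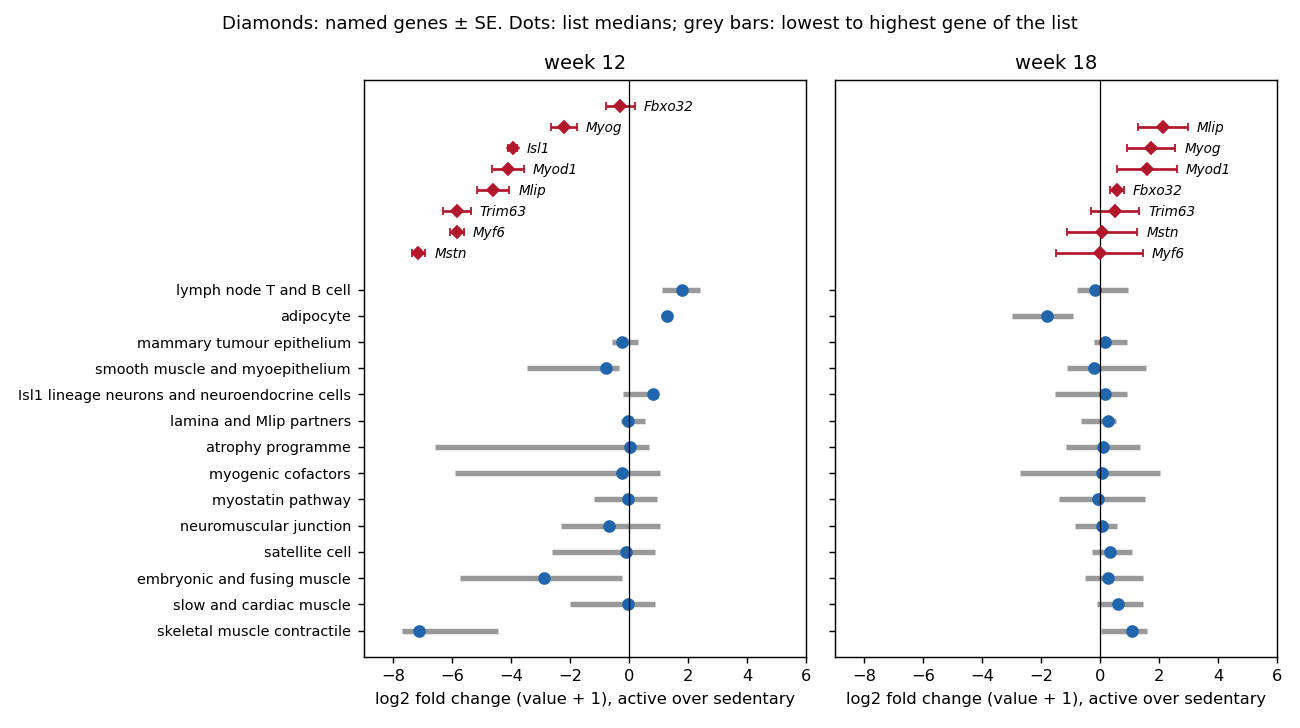
Log2 fold changes of active over sedentary tumours on the log2(value + 1) scale at week 12 and week 18, for the named genes (diamonds with standard errors) and for 14 gene lists (dots, median; grey bars, lowest to highest gene). At week 12 Mstn, Myf6, Trim63 and Mlip lie within the range of the contractile list (-7.71 to -4.45, median -7.11). Myf6 had no read in active tumours of week 12, so its place depends on the pseudocount (-9.14 with 0.1, -3.62 with 5). The medians of the myostatin pathway and atrophy lists lie at -0.03 and 0.05.

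Set against the Myh4 reads of the same tumour, the genes did not keep 1 ratio. The contractile genes Myoz1 and Myh2 did not either, by group means of normalized counts. In sedentary week 12 these were 28800 for Myh4, 985 for Myoz1 and 727 for Myh2. At week 18 they were 1304, 75.4 and 167 in sedentary and 1255, 107 and 216 in active tumours. A changed ratio is thus not particular to the genes here, and the part of Myh4 itself in it was not tested. Mstn was at 10.2, 21.2 and 12.8 reads per 1000 Myh4 reads in the sedentary tumours of week 12. At week 18 it was lower in sedentary replicates 2 and 3 (6.79 and 4.07) and in active replicates 2 and 3 (3.57 and 0.674), and active replicate 1 was at 30.3 from 7 reads. Sedentary replicate 1 had 0 Mstn reads beside 128 Myh4 reads, and its 95% exact counting interval of 0 to 29.2 places it neither above nor below. Summed over tumours, Mstn was at 13.2 per 1000 (95% exact counting interval 12.4 to 13.99) in sedentary week 12 and at 4.67 (3.30 to 6.41) at week 18. In active tumours of week 12 the sum was 9.36 (3.03 to 22.0), an interval that holds the sedentary value.

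Trim63 went the other way. It was at 5.85, 9.79 and 7.08 reads per 1000 Myh4 reads in sedentary tumours of week 12, and at 70.3, 24.2, 6.98 (sedentary) and 47.6, 21.8, 21.6 (active) at week 18. In 5 of 6 tumours of week 18 it was above every sedentary tumour of week 12. The active tumours of week 12 were at 16.3, 20.8 and 14.1 from only 6, 2 and 1 reads, and the interval of each overlaps those of the sedentary tumours. Summed, the ratio was 7.04 (6.47 to 7.64) in sedentary week 12 and 20.8 (17.7 to 24.2) at week 18. In active week 12 the sum was 16.9 (7.66 to 32.2), from 9 reads, an interval above that of sedentary week 12.

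The summed ratio of Myf6 was 2.07 (1.77 to 2.41) in sedentary week 12, and 7.16 (4.75 to 10.4) in sedentary and 8.27 (5.75 to 11.5) in active tumours of week 18, with single tumours from 0 to 16.8. That of Mlip was 3.62 (3.21 to 4.06) in sedentary week 12 and 20.6 (10.2 to 37.2) in active week 12, the latter from 11 reads. It was 4.86 (2.92 to 7.60) in sedentary tumours of week 18, an interval that holds the sedentary week 12 value, and 17.5 (13.7 to 22.0) in active ones. Fbxo32 was at 204 per 1000 in sedentary week 12 and at 3998 at week 18, where its own level (3438 to 7423) lay within its week 12 range (2521 to 8582).

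**Figure D3:**
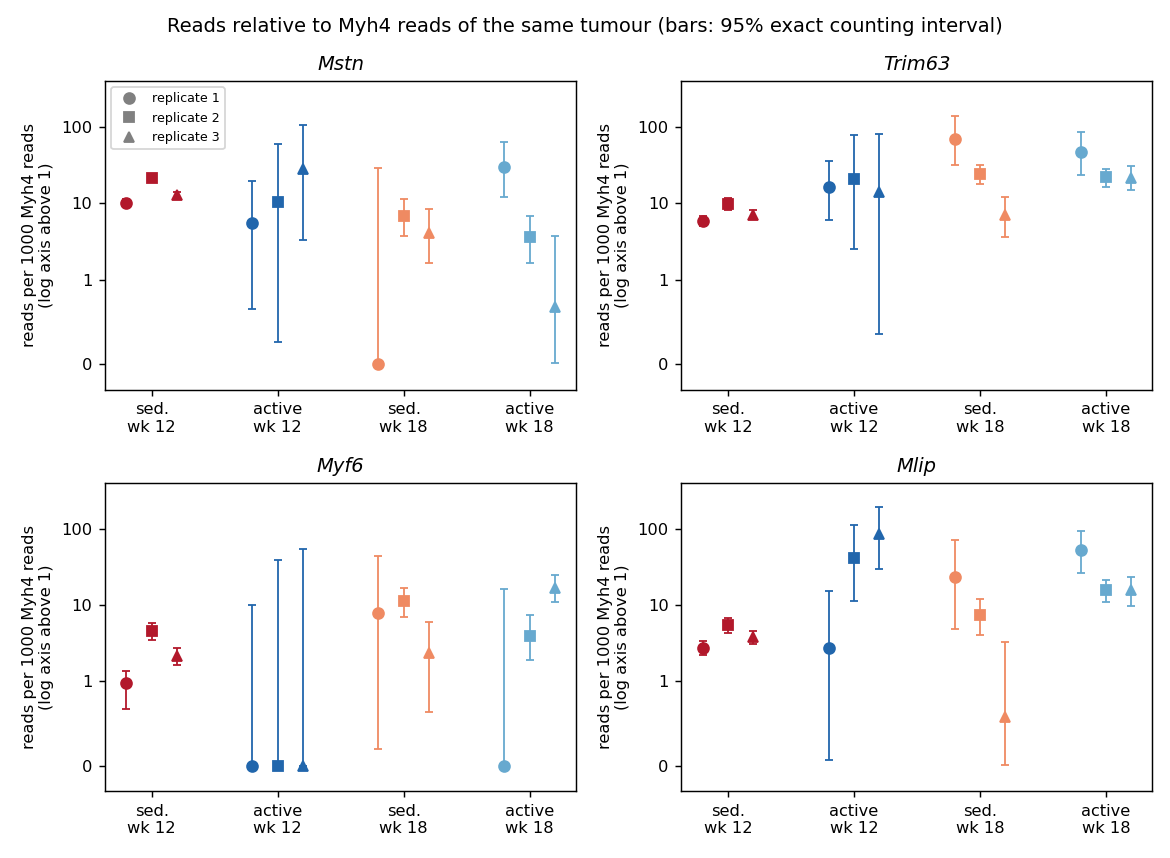
Reads of Mstn, Trim63, Myf6 and Mlip per 1000 Myh4 reads in each tumour (points, shape by replicate number; bars, 95% exact counting interval; log axis above 1, linear below). Trim63 lies higher in 5 of 6 week 18 tumours than in any sedentary tumour of week 12, and Mstn lies lower in replicates 2 and 3 of both week 18 groups, while its interval in sedentary replicate 1 (0 to 29.2) covers the week 12 values.

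The same is seen in reads. At the sedentary week 12 ratio to Myh4, the 6 tumours of week 18 would hold 107 Mstn reads, and 38 were counted (95% exact Poisson interval 26.9 to 52.2). For Trim63 the ratio gives 57.3 reads, and 169 were counted. Myf6 had 63 reads against 16.8, Mlip 93 against 29.5, Myod1 20 against 6.76 and Myog 13 against 1.51. Of these reads, active tumours held 74 of the 93 for Mlip, 18 of the 20 for Myod1 and all 13 for Myog. In sedentary tumours of week 18 the ratios of Myod1 (0.512 per 1000) and Myog (0) were below those of sedentary week 12 (0.830 and 0.186), within counting error. For Isl1 the ratio gives 4.14 reads at week 18, and the 1 read counted (0.0253 to 5.57) does not differ from it beyond counting error. In active tumours of week 12 it gives 0.271 reads for Isl1, so that an absence of Isl1 beyond that of Myh4 was not detectable at this depth. The intervals cover counting error only and leave out the spread between tumours.

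**Figure D4:**
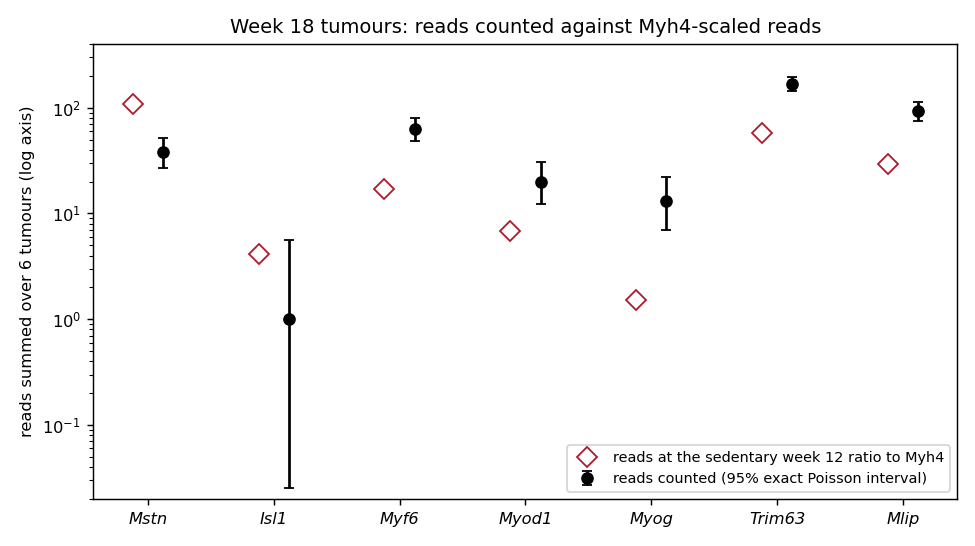
Reads summed over the 6 week 18 tumours (black, 95% exact Poisson interval) beside the reads that the sedentary week 12 ratio to Myh4 gives (open diamonds), on a log axis. Mstn was counted below its diamond (38 against 107), Trim63, Myf6, Myod1, Myog and Mlip above theirs (the Myog reads and 18 of the 20 Myod1 reads are from active tumours), and the interval of Isl1 holds its diamond.

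Between tumours these ratios were wide. As log2((gene + 1)/(Myh4 + 1)), the week 18 mean minus the sedentary week 12 mean was -1.19 for Mstn, within its pooled SD of 1.31. It was 1.79 for Myf6, 1.85 for Trim63, 1.71 for Mlip and 4.83 for Fbxo32, with pooled SDs of 1.11, 1.00, 1.66 and 1.53. Against the mean of log2(value + 1) over the contractile list in place of Myh4, the differences were -2.11 for Mstn, 0.88 for Myf6, 0.94 for Trim63 and 0.80 for Mlip. No test was made of these ratios, which were among the values known when the genes were chosen.

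The pathways around the genes were described from lists chosen with earlier results of these data known. Of 19 listed genes of the myostatin pathway, 0 were called by limma at week 12 or week 18, and the week 12 median of -0.03 lay by the 0.01 of all genes. The most abundant were Inhbb, an activin subunit, Dcn, a proteoglycan that binds myostatin, and Furin, which cleaves its precursor. Acvr2b, the main myostatin receptor, was at 79.0 to 142 normalized counts in all 12 tumours, and its values in the groups overlapped. The receptor side was thus measured in all tumours, while the ligand was high in 3.

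Of 18 listed cofactors of myogenesis, 3 were lower in active tumours of week 12 by limma, Klhl41 and Vgll2 among them. Klhl41, a sarcomere assembly factor, had a log2 fold change of -5.90 (adjusted p = 0.0173). Vgll2, a muscle cofactor of TEAD factors, had -3.91 (adjusted p = 0.0472) and no read in the active tumours. In limma fits without 1 tumour, Klhl41 was called in 2 of 6 (without active replicate 1 or 3), and Vgll2 in 1 of 6 (without sedentary replicate 2), with adjusted p-values of up to 0.142 and 0.241. The list's median was -0.24, and the widely expressed Id2, Tcf12 and Mef2d were not called (-0.45, -0.11 and 0.20).

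Of 22 other genes of the atrophy programme, 1 was called at week 12, Trim54 (MuRF3), the muscle relative of Trim63, at -6.58 (adjusted p = 0.00682). The call was lost without sedentary replicate 1 or 3 (limma adjusted p = 0.0631 and 0.0748). Its levels were 190, 117 and 167 normalized counts in sedentary and 0, 1.03 and 1.12 in active tumours. The list's median was 0.05, and the widely expressed ubiquitin and autophagy genes Nedd4, Ubb and Sqstm1 were at 0.14, 0.0039 and -0.11. Foxo1 and Foxo3, the factors that act on both ligase genes in wasting muscle, were at 992 to 3054 and 2515 to 5362 over the 12 tumours. None of 9 lamina genes, the partners of Mlip, was called, and Lmna was at -0.27.

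Lists of younger muscle held 1 called gene at week 12. Of 8 listed satellite cell genes, 0 were called. They summed to 5968 to 13668 normalized counts over the 12 tumours, with Sdc4 the largest part (3925 to 10660). Cdh15 (M-cadherin) was at 0.957 to 39.6, so the sum is not a measure of satellite cells. Cdh15 had the lowest log2 fold change of the list, -2.63 with a limma adjusted p-value of 0.372. Pax3, Calcr and Chodl were not listed. Of the embryonic and fusing muscle list, 4 genes were tested at week 12 and 1 was called, Jsrp1 at -5.74 (adjusted p = 0.0101), a gene of the mature triad. Its call was lost without any 1 of the sedentary tumours (limma adjusted p of up to 0.0965). Mymk, Mymx and Chrng were not listed. Of 7 neuromuscular junction genes and of 5 slow and cardiac genes, 0 were called at week 12. Slow myosin Myh7 was at 0, 0 and 2.81 normalized counts in the sedentary week 12 tumours, whereas Myh4 was highest there. At week 18 Myh7 varied widely, at 0, 31.4 and 86.2 in sedentary and from 3.12 to 60.6 in active tumours. The slow and cardiac genes did not all move alike. By group means Actc1 was at 41.3 in sedentary week 12, and at 11.3 (sedentary) and 15.7 (active) at week 18. Tnni1 was at 9.83, 16.6 and 22.3 in the same 3 groups. These differences between the weeks were not tested.

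Of 10 smooth muscle and myoepithelial, 9 epithelial, 10 adipocyte and 12 lymph node genes, 0 were called at week 12. Active replicate 3 of week 12 stood apart in the lymph node and adipocyte lists, with summed levels of 30206 for the former (266 and 660 in the other active tumours of that week) and 355434 for the latter (15425 and 80427). Without it, Mstn, Myf6, Isl1 and Trim63 were still called at week 12, at -7.29, -5.84, -3.95 and -5.47, and Mlip was at -5.04 with a limma adjusted p-value of 0.0615. At week 18, 0 genes of any of the 14 lists were called. The contractile median was 1.09 (0.01 over all genes), with all 20 genes positive, from 0.0094 to 1.60. These genes moved together, so their shared sign is not 20 separate results. Replicate 1 was low in both groups (Myh4 at 123 in sedentary and 240 in active tumours). By group means Myh4 was at 1304 in sedentary and 1255 in active tumours, and Acta1 at 1548 and 3225.

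The genes whose levels over the 12 tumours were most like those of Mstn and Isl1 were ranked by correlation. Among 17506 genes with a group mean of at least 10, the highest Pearson r with log2 Mstn outside the 10 genes belonged to Myom1 (0.940), Atcayos (0.936), Mylk2 (0.930), Casq1 (0.930) and Mlf1 (0.926). For Isl1 they were Akap6 (0.956), Myom1 (0.943), Jph1 (0.924), Tmod1 (0.920) and Crhr2 (0.911). Mstn and Isl1 were at 0.953 with each other, above the r of Mstn with Myh4 (0.905), while Fbxo32 was at 0.228. These r rest on the 3 sedentary week 12 tumours standing apart from the rest and are a description only.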

How the data were processed

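Sequencing libraries of 12 mammary tumours were used, 3 in each of 4 groups. The authors deposited a normalized signal per gene, with a log2 fold change, p-value and adjusted p-value for active against sedentary tumours, in 1 table per week. Whole reads were recovered for 100% of the signal values (tolerance 0.01), so the deposited signal is a gene count divided by 1 factor per library. These factors equalled median-of-ratios factors over all 12 tumours, so both tables share a scale. In sedentary week 18 replicate 3 the step was 0.991, near 1. The build was mm10, per the submitters' processing notes. The aligner, the counter and the annotation were not given in the sources used here. Of the stem cell tables, 9 per-sample columns were not used; for the sedentary ones only the Fbxo32 values are given.

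Limma 3.58.1 in R 4.3.3 was run on log2(value + 1), leaving out genes whose mean was below 1 in both groups, with Benjamini-Hochberg adjustment and a threshold of 0.05. Fold changes are on that scale, where those of low genes come out too small. EdgeR 4.0.16 (quasi-likelihood) and DESeq2 1.42.0 on recovered reads were alternatives, beside other pseudocounts, filters, scaling (TMM), the replicate number as a block and fits without 1 tumour. The fits were tested on simulated data. P-values measure the spread between libraries that the labels call biological replicates. Counting intervals are 95% exact (Poisson, or Clopper-Pearson for ratios), and the floor is 3 reads. Since reads carried no molecular identifiers, both cover counting error only.

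The genes and 14 lists were chosen with earlier results of these data known. Named from each list were up to 4 genes past the threshold by p-value and the 3 with the highest mean. Other list genes (Acvr2b, Foxo1 and Foxo3) were added after their values were seen, and some list genes are not reported here. Likeness was Pearson r over 12 tumours. Same-numbered tumours deviated together at week 18 (r of 0.164, 0.159 and 0.139 across genes) but not at week 12 (-0.033, -0.095 and 0.092). The main fits were unpaired at both weeks. The replicate block was run as an alternative at both weeks, and the numbers were taken as possible pairs at week 18 only. The labels do not say that same-numbered tumours are pairs. For the difference between weeks the block grouped same-numbered tumours within both weeks. Exon lengths and positions came from GENCODE M21, and upstream sequences from RefSeq.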

Additional observations from a re-analysis of the deposited data

Results flagged for a closer look

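Limma called the difference between the weeks for Isl1 alone of the 8 genes tested. This was over all 12 tumours, with a pseudocount of 1 and no replicate block. The week 18 effect minus the week 12 effect was 3.61 on the log2(value + 1) scale, with a standard error of 0.36 and an adjusted p-value of 0.0392. Isl1 was higher in 3 of 3 sedentary than in any active tumour at week 12, and had 1 read summed over the 6 tumours of week 18. Outside the sedentary week 12 tumours it had 0 or 1 read per library, where values hardly vary, so its standard error is small. Of the 8 genes only Fbxo32 had a smaller difference (0.86), and Mstn had 7.21 with a standard error of 1.30. The Isl1 difference was known when the genes were chosen. With 1 read at week 18 no activity effect of Isl1 could show there. Its difference between the weeks thus largely restates the week 12 contrast (-3.95). The call was lost in 9 of the 12 fits without 1 tumour, the exceptions being those without active week 12 replicate 3, sedentary week 18 replicate 2 and active week 18 replicate 1. It was also lost with a pseudocount of 0.1 (limma adjusted p = 0.292), by edgeR and by DESeq2 (adjusted p = 1.00 and 0.569), while limma with the replicate block called Isl1 and Trim63.

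Fbxo32 also had reads outside the tumours. Sorted hematopoietic stem cells of sedentary mice held 28, 29 and 175 Fbxo32 reads in their 3 libraries, above the floor of 3 reads. No tumour comparison uses these libraries, and their levels cannot be set beside those of the tumours.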

How the results depend on the processing

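At week 12, 99 genes were called by limma, 208 by DESeq2, 0 with the replicate block and 9 to 71 without 1 tumour. With the block, 813 genes had a limma p-value under 0.05 before adjustment. Same-numbered tumours did not deviate together at week 12. Of the 8 genes tested, 5 were called, 2 by edgeR (Mstn and Trim63), 0 with the replicate block and 3 to 5 without 1 tumour. Without 1 tumour, Mstn, Myf6 and Isl1 were called in 6 of 6 fits, Trim63 in 2 (without active replicate 1 or 3) and Mlip in 1 (without active replicate 1). Fbxo32 ranged from -0.73 to 0.15 without 1 tumour, the latter without active replicate 3. Without sedentary replicate 1 or 3, Myoz1, Myh2, Klhl41, Vgll2, Trim54 and Jsrp1 lost their calls. The cause was not tested.

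At week 18, 0 genes were called, 5 with a pseudocount of 0.1, 52 by DESeq2 and 0 to 5 without 1 tumour (5 without sedentary replicate 1), and 0 of the 7 genes tested under every alternative run. The replicate block, which takes same-numbered tumours as pairs, called 0 genes. The week 18 value of Mstn turned to -0.10 with a pseudocount of 5, to -0.38 by edgeR, to -0.39 by DESeq2, and to -1.08, -0.27 and -0.32 without sedentary replicate 1, active replicate 1 and active replicate 2 (range without 1 tumour -1.08 to 0.88). That of Myf6 turned to 0.10, 0.16 and 0.15 in the first 3 of these, and to 0.97 and 1.29 without sedentary replicate 2 and active replicate 1 (range -0.99 to 1.29).

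For the difference between weeks, 2 genes were called, 4 with a pseudocount of 5, 0 by edgeR, 172 by DESeq2, 69 with the replicate block and 0 to 23 without 1 tumour. Of the 8 genes, 1 was called, 0 with a pseudocount of 0.1, 2 with a pseudocount of 5 (Isl1 and Mstn), 0 by edgeR, 5 by DESeq2 (not Isl1), 2 with the replicate block (Isl1 and Trim63) and 0 to 2 without 1 tumour (Myod1 and Isl1 without active week 18 replicate 1). Week 18 values without 1 tumour ran from 0.02 to 1.24 for Trim63, 0.97 to 2.62 for Myod1, 0.93 to 2.58 for Myog and 1.45 to 2.96 for Mlip. The ratios of Mstn, Myf6, Trim63, Fbxo32 and Mlip to Myh4 kept their direction under all 11 alternatives run, those of Mstn from -2.11 to -0.77. For Myod1, Myog and Isl1 these alternatives were not run. Depth limits Isl1, Myog and Myod1 most, with 1 to 20 reads each over the 6 tumours of week 18.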
